A study of Mus musculus with 16 samples.

Results

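Heat shock chaperones were measured in lung RNA of 16 mice, all females of A/J, a strain in which lung tumours arise readily. The set has 10 genes, taken by name: Hspa1a, Hspa1b and Hspa8 of the HSP70 family, Hsph1 (named Hsp105 on the array), Hsp90aa1 (named Hspca), the small heat shock protein Hspb1, the J-domain protein Dnajb1, the mitochondrial pair Hspd1 and Hspe1, and the cochaperone Bag3. Of these 10 names, 9 had a probe, out of 27703 gene names on the array, and Hspa1b had none of its own. The 9 genes have 17 probes among 41174, and all 17 passed the filter on dim probes, which kept 21248 genes for testing.

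The 4 groups of 4 mice were NNK+SECY, NNK, SECY and Untreated. NNK is a tobacco-specific nitrosamine that causes lung tumours in this strain, given once by intraperitoneal injection as 0.2 mL of a 10 uM solution in saline, and SECY is selenocystine, a selenium-containing amino acid, fed at 15 ppm for 10 days. In the NNK+SECY mice this diet began 3 days after the injection, and both NNK groups were killed 13 days after it. All 4 groups ate the same base diet, AIN-76 with 0.35 ppm selenium. Each lung was labelled with Cy5 and hybridised on an array of its own against 1 common Cy3 reference, an equal mix of RNA from the 4 Untreated lungs, so a log2 ratio of 0 is the level of that mix. No vehicle-injected group is among the 16 samples, and whole lung was used, where fewer cells of a type and less RNA per cell cannot be told apart.

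Heat shock proteins keep other proteins folded. HSP70 proteins bind exposed stretches of unfolded chains with the help of J-domain proteins such as Dnajb1, HSP110 proteins such as Hsph1 and BAG proteins such as Bag3 exchange their nucleotide, and HSP90 finishes the folding of kinases and receptors. Most of these genes are switched on by the heat shock factor Hsf1, which binds repeats of the unit GAA and its complement TTC, and the inducible Hspa1a and Hspa1b are the classic targets, whereas Hspa8 is made by resting cells too. The proteins Hspd1 and Hspe1 form the folding chamber of mitochondria.

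The promoters of 8 of the 10 genes could be read from RefSeq (GRCm38.p6), in windows that run from 250 bases before to 50 bases after a transcript start. The windows of 5 genes are shown because they hold such units in different number and spacing, and because Hspa1a and Hspa1b differ so little there. Capitals mark 2 neighbouring units facing each other, GAANNTTC or TTCNNGAA, each of which reads the same on both strands.
Hspa1a (chr17:34972107-34972406, minus strand): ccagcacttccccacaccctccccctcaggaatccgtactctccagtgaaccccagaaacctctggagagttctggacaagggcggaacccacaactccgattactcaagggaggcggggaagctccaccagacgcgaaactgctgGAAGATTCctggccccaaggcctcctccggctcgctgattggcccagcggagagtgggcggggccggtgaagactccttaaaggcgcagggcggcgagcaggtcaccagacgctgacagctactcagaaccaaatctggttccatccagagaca
Hspa1b (chr17:34959189-34959488, minus strand): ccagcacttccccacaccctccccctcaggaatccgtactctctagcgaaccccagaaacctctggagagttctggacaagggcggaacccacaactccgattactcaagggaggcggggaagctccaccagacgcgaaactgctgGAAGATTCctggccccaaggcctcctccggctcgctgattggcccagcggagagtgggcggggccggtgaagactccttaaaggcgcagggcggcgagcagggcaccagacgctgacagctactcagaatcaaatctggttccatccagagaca
Hsph1 (chr5:149636266-149636565, minus strand): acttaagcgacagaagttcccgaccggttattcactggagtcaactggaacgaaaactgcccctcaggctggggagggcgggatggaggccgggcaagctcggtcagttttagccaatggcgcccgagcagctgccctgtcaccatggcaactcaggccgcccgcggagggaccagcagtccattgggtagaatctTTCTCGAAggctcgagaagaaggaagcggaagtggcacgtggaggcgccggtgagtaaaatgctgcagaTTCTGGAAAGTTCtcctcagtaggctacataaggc
Hspb1 (chr5:135887669-135887968, plus strand): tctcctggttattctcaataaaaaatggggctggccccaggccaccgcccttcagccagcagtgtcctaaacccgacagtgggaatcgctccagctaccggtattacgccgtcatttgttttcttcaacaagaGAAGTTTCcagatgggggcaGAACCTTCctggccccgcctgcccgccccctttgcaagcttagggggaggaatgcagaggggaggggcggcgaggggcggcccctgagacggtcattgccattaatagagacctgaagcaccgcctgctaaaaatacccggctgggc
Hspe1 (chr1:55087898-55088197, plus strand): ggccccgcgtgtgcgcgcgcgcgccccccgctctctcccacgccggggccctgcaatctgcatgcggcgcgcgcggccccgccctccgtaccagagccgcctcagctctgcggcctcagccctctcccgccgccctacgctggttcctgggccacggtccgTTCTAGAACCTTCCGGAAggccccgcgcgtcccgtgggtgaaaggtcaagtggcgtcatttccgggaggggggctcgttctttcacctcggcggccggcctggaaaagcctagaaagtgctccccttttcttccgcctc

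At least 1 such pair stood in the windows of 7 of the 8 genes, and in 8 of their 11 listed starts, against 15.1% of all 32851 starts in the table. The exception was Dnajb1, with no match at either of its starts, which says only that these letters are not in those windows. A run of 3 alternating units with 2 bases between neighbours, searched on both strands and overlapping the pairs above, stood in the windows of 3 genes, Hsph1, Hspd1 and Hspe1, against 0.603% of all starts. A run of 4 units was held by 0.0244% of all starts. It lay between -89 and -72 from the start of Hspe1, and the same bases lie upstream of Hspd1, which is read in the other direction: the windows of these neighbours share 285 bases. The windows of Hspa1a and Hspa1b, whose starts are 12918 bases apart, were identical at 296 of 300 positions, and both carried their pair of units at -104 to -97. A match is a description of letters and not of binding, and Hspa1a and Hspa1b transcripts are also nearly the same. Of the 4 Hspa1a probes, 2 also list an Hspa1b accession, but the brightest probe, which stands for the gene, does not. Because the transcripts are so alike, the Hspa1a values may still hold transcripts of both genes.

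Mice given the same treatment differed widely in several of these transcripts. The median spot signal of an array was 71.2 to 105 in Cy5, and SECY 3 stood apart from its group, with a mean correlation over genes of 0.0389 with the other SECY arrays, against 0.125 to 0.566 for the other 15 arrays. Per the file headers, NNK and Untreated mice of the same number share a slide (slides 1 to 4), as do NNK+SECY and SECY mice (slides 5 to 8), so slide set and diet cannot be told apart. Both NNK groups were scanned on 1 day and the other groups on another, so scan day and NNK cannot be told apart. Spots well above background made up 75.0% to 79.3% of an array on slides 5 to 8 and 66.3% to 72.6% on slides 1 to 4.

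Hspa1a, the inducible HSP70, had the widest range. Its log2 ratios to the pool were -1.44, -0.90, -1.75 and 0.21 in NNK+SECY mice 1 to 4, and -1.56, -0.79, -0.40 and -1.27 in NNK mice. They were -0.87, -0.71, 0.69 and 0.56 in SECY mice, against -2.00, 0.52, 0.49 and -0.34 in Untreated mice. All 4 NNK mice and 3 of the 4 NNK+SECY mice lay below the pool, while SECY and Untreated mice lay on both sides of it, and Untreated mouse 1 was the lowest of all 16. The highest mouse, SECY 3, had 6.49 times the Hspa1a signal ratio of the lowest, Untreated 1. Among the Untreated mice alone the highest was 5.76 times the lowest.

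Since the reference is a mix of the same 4 Untreated lungs, their linear ratios should average close to 1 whatever their spread. For Hspa1a the 4 linear ratios were 0.249, 1.43, 1.41 and 0.79, with a mean of 0.971, and the other 8 genes had means from 0.908 for Hspa8 to 1.12 for Hspe1. The median over all genes tested was 1.01.

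The 4 Hspa1a probes differed in the size of their ratios, although each was lowest in Untreated mouse 1. On the representative probe, the brightest, the ratios ran from -2.00 to 0.69 over the 16 arrays, and a probe without the Hspa1b accession ran from -1.82 to 0.67. The 2 probes that also list Hspa1b ran from -1.22 to 0.49 and from -0.36 to 0.22. The last of these was the dimmest of the 4, at a mean log2 intensity of 6.38 against 9.77 for the representative probe. Their log2 fold changes for NNK vs Untreated were -0.67, -0.67, -0.48 and -0.14.

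Hsph1, an HSP110 protein that works as a nucleotide exchange factor of HSP70, followed the same mice. Its log2 ratios were -0.76, -0.18, -1.02 and 0.50 in NNK+SECY mice, and -1.01, -0.25, 0.22 and -0.66 in NNK mice. They were -0.48, 0.080, 0.47 and 0.66 in SECY mice, against -1.0, 0.44, 0.54 and -0.0052 in Untreated mice. The lowest 4 values came from 3 groups, namely NNK+SECY 3, NNK 1, Untreated 1 and NNK+SECY 1, and each of the 4 groups held both negative and positive values.

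Dnajb1, the HSP40 that delivers clients to HSP70, had smaller ratios. Its log2 ratios were -0.66, -0.28, -0.59 and 0.40 in NNK+SECY mice, and -0.76, -0.21, 0.044 and -0.69 in NNK mice. They were -0.32, -0.058, 0.14 and 0.51 in SECY mice, against -0.92, 0.33, 0.28 and 0.11 in Untreated mice. Untreated mouse 1 was again the lowest of the 16, while the other 3 Untreated mice lay above the pool.

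Hspa8, the constitutive HSP70, was the brightest of the set, with a mean log2 Cy5 signal of 13.4, but flags left out 3 spots of its brighter probe. On that probe the ratios were -0.64, -0.20, -0.59 and 0.25 in NNK+SECY mice, -0.61 and -0.23 in NNK mice 1 and 2, and -0.15, 0.17 and 0.33 in SECY mice 1, 3 and 4, against -0.62, -0.063, 0.11 and -0.076 in Untreated mice. The second probe, complete on all arrays, gave -0.66, -0.042, 0.12 and -0.32 in NNK mice, against -0.30, 0.030, 0.19 and 0.037 in Untreated mice. Both probes are placed on chromosome 5 by the array's annotation, whereas RefSeq lists Hspa8 on chromosome 9, and near-identical copies of Hspa8 may share their signal. The group means of the Hspa8 reference signal differed by up to 0.35 on the log2 scale, the widest of the set, against 0.079 for Hspa1a.

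The small heat shock protein Hspb1, which holds unfolded proteins in solution, ranged from -0.22 to 0.21 in NNK+SECY mice and from -0.32 to 0.086 in NNK mice. In SECY mice it ranged from -0.10 to 0.47, against -0.43 to 0.38 in Untreated mice, where mouse 1 was the lowest of all. A second probe under the name Hspb1, which the array places on chromosome 13 whereas RefSeq lists the gene on chromosome 5, was well above background in Cy5 on 9 of 16 arrays and ran from -0.15 to 0.069.

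Bag3, which links HSP70 to small heat shock proteins and to autophagy, was at -0.31, -0.18, -0.30 and 0.065 in NNK+SECY mice, and at -0.37, -0.30, -0.15 and -0.25 in NNK mice. It was at -0.22, 0.33 and -0.060 in SECY mice 1, 3 and 4, against -0.42, -0.026, 0.24 and -0.026 in Untreated mice. All 4 NNK mice lay below the pool, but Untreated mouse 1 lay below all of them.

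Hsp90aa1, the inducible cytosolic HSP90, ordered the mice differently. Its log2 ratios were -0.38, -0.38, -0.20 and 0.17 in NNK+SECY mice, and -0.44, -0.070, -0.23 and -0.44 in NNK mice. They were -0.0018, 0.063, -0.31 and 0.48 in SECY mice, against -0.0074, 0.11, -0.044 and -0.23 in Untreated mice. Untreated mouse 1, the lowest of the 16 for Hspa1a and Dnajb1, was here close to the pool, and SECY 3, the highest for Hspa1a, was the lowest SECY mouse.

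The mitochondrial pair varied little. Hspd1 ranged from -0.043 to 0.16 in NNK+SECY mice and from -0.23 to 0.068 in NNK mice. In SECY mice it ranged from -0.049 to 0.34, against -0.10 to 0.16 in Untreated mice. Hspe1, its partner in the folding chamber, was at 0.027, 0.029, 0.073 and 0.12 in NNK+SECY mice, and at -0.030, 0.0084, 0.21 and 0.025 in NNK mice. It was at 0.094, 0.19, 0.036 and 0.36 in SECY mice, against 0.11, 0.22, 0.15 and 0.15 in Untreated mice. All 4 Untreated mice thus lay above the mix of their own RNA, so the ratios of Hspe1 are not exact levels relative to that mix. The cause of this offset was not tested. Hspd1 and Hspe1 were both highest in SECY mouse 4 and lowest in NNK mouse 1.

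**Figure D1:**
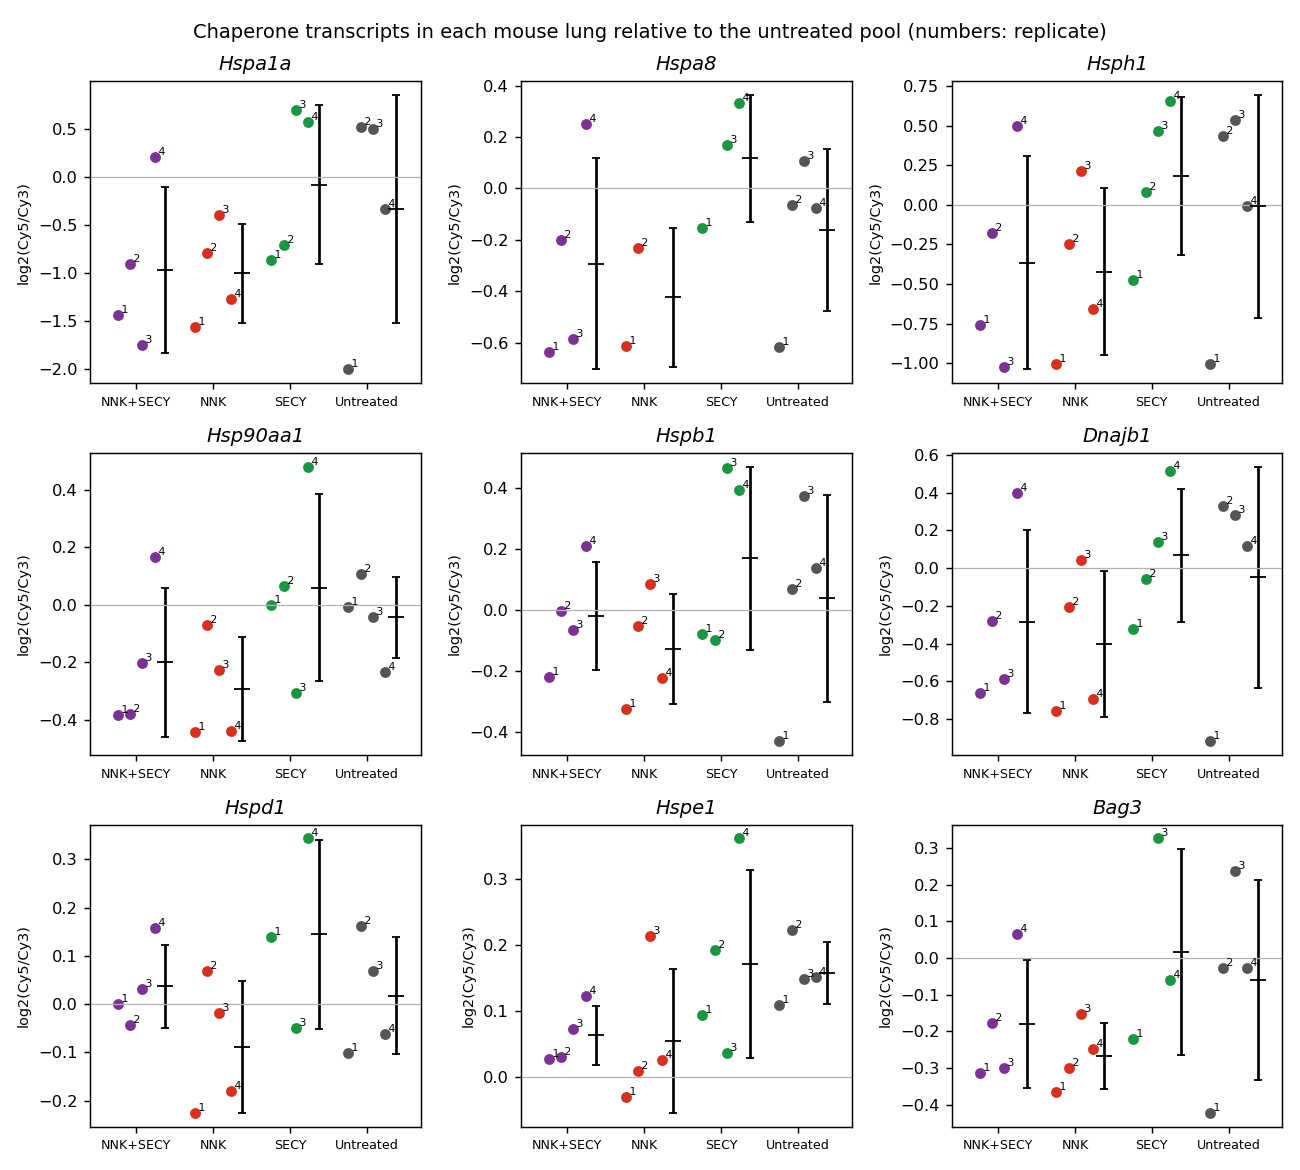
Log2 ratio of each lung to the untreated pool (vertical axes, each with its own scale) for the 9 measured chaperones in NNK+SECY, NNK, SECY and Untreated mice; points are arrays with their replicate number, and the bar beside each group is its mean with the SD. Untreated mouse 1 is the lowest of all 16 for Hspa1a at -2.00 and for Dnajb1 at -0.92, and NNK mice overlap Untreated mice in every panel.

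The first comparison asked what differed 13 days after NNK. No chaperone passed the threshold of an adjusted p of 0.05 (limma, adjusted by Benjamini-Hochberg over all genes), where 0.32% of all genes did. All 9 were below 0, with a median log2 fold change of -0.25 against a median of 0.0048 over all genes, of which 47.1% were below 0. For none of the 9 did all 4 NNK mice lie on 1 side of all 4 Untreated mice, as they did, with NNK higher, for 2.81% of all genes and, with NNK lower, for 1.35%. Hspa1a averaged -1.01 ± 0.51 in NNK mice and -0.33 ± 1.18 in Untreated mice (SD, n = 4 each), a log2 fold change of -0.67 with a 95% confidence interval of -1.81 to 0.46 and an adjusted p of 1 after rounding (limma). In the model over all 16 arrays without blocks, none of the 9 had an unadjusted p below 0.05 here or in the other 4 comparisons of this kind, where 5.04% of all genes had one here and up to 9.9% elsewhere. A second, dimmer Hspd1 probe, which does not represent the gene, was at -0.23 ± 0.09 for NNK vs Untreated and at 0.21 ± 0.09 for NNK+SECY vs NNK (SE, adjusted p = 0.864 and 0.415 in limma over all probes). The interval for Hsp90aa1 ran from -0.56 to 0.064 around -0.25, and that for Hspe1 from -0.25 to 0.038 around -0.10. Because the genes deviated together from mouse to mouse, their 9 signs are not 9 separate observations, and lists of heat shock genes from these arrays were known to be lower when the set was chosen.

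Single Untreated mice moved these values in both directions. Without Untreated mouse 1 the median of the 9 was -0.33 and Hspa1a was at -1.23 ± 0.46 (SE, adjusted p = 0.751 in limma), and without Untreated mouse 3 the median was -0.17. Without mouse 1, 5 of the 9 had an unadjusted p below 0.05, where 5.42% of all genes did. With the slide as a block, which pairs NNK and Untreated mice of the same number, the median was -0.21 and no gene passed, with adjusted p values from 0.64 for Hsp90aa1 to 0.991 for Hspa8. Within slide 1, Hspa1a was at -1.56 in the NNK mouse and -2.00 in the Untreated mouse, a difference of 0.44. Within slides 2, 3 and 4 the difference was -1.32, -0.89 and -0.93. The NNK mouse was the lower one for 4 of 9 genes on slide 1, 9 of 9 on slide 2, 7 of 8 on slide 3 and 8 of 8 on slide 4.

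The same injection could be compared on the selenocystine diet, on other slides and with no array in common. Here too no chaperone passed, where 0.00942% of all genes did. All 9 were below 0 in NNK+SECY relative to SECY mice, with a median log2 fold change of -0.26 against 0.0053 over all genes, and the groups overlapped for all 9, where 1.58% of all genes had NNK+SECY mice apart and higher and 1.46% apart and lower. Hspa1a averaged -0.97 ± 0.86 in NNK+SECY mice and -0.082 ± 0.82 in SECY mice (SD, n = 4 each), a log2 fold change of -0.89 with a 95% confidence interval of -2.02 to 0.25. Hspa8 was at -0.41 (interval -0.87 to 0.052), Hsph1 at -0.55 (interval -1.34 to 0.24) and Dnajb1 at -0.35 (interval -0.95 to 0.25). Within slides 5 to 8 the Hspa1a difference was -0.57, -0.19, -2.44 and -0.36, widest on the slide that holds SECY 3. The NNK+SECY mouse was the lower one for 9 of 9 genes on slide 5, 5 of 6 on slide 6, 6 of 9 on slide 7 and 8 of 9 on slide 8. With the slide as a block Hspa8 was at -0.44 ± 0.12 and Hsp90aa1 at -0.26 ± 0.08 (SE, adjusted p = 0.615 and 0.62 in limma), and 5 of the 9 had an unadjusted p below 0.05, where 7.3% of all genes did. Without SECY 3 Hspa1a was at -0.63 ± 0.56 (SE), and the median of the 9 genes was -0.33.

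Averaged over both diets, a contrast added after the data were seen, all 9 genes were again below 0, with a median of -0.25, and none passed, where 0.283% of all genes did. Hspa1a was at -0.78 (95% confidence interval -1.58 to 0.021) and Hsp90aa1 at -0.25 (interval -0.48 to -0.033), with adjusted p values of 0.749 and 0.616 in limma. Hspe1 was at -0.11 (interval -0.21 to -0.0055). An unadjusted p below 0.05 was reached by 2 of the 9, Hsp90aa1 and Hspe1, against 6.81% of all genes. With the slide as a block the limma adjusted p was 0.199 for Hsp90aa1, 0.289 for Dnajb1, 0.305 for Hsph1 and 0.386 for Hspa1a, with the same fold changes for these 4. In that fit all 9 had an unadjusted p below 0.05, where 8.05% of all genes did. With the replicate number as a block 8 of the 9 had one, where 7.7% of all genes did. For NNK vs Untreated alone the slide block gave 2 of the 9 (5.79% of all genes) and the replicate block 0 (5.55%). For NNK+SECY vs SECY alone the replicate block gave 1 (7.11%). Since the genes deviated together, these counts are not separate observations, and scan day cannot be told apart from NNK in them. The difference between the NNK effects on the 2 diets passed for none of the 9 and for 0.00471% of all genes. It had a median of -0.0088 over the 9 genes, and the interval for Hspa1a, -1.82 to 1.39, was wide enough to hold differences of either sign.

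**Figure D2:**
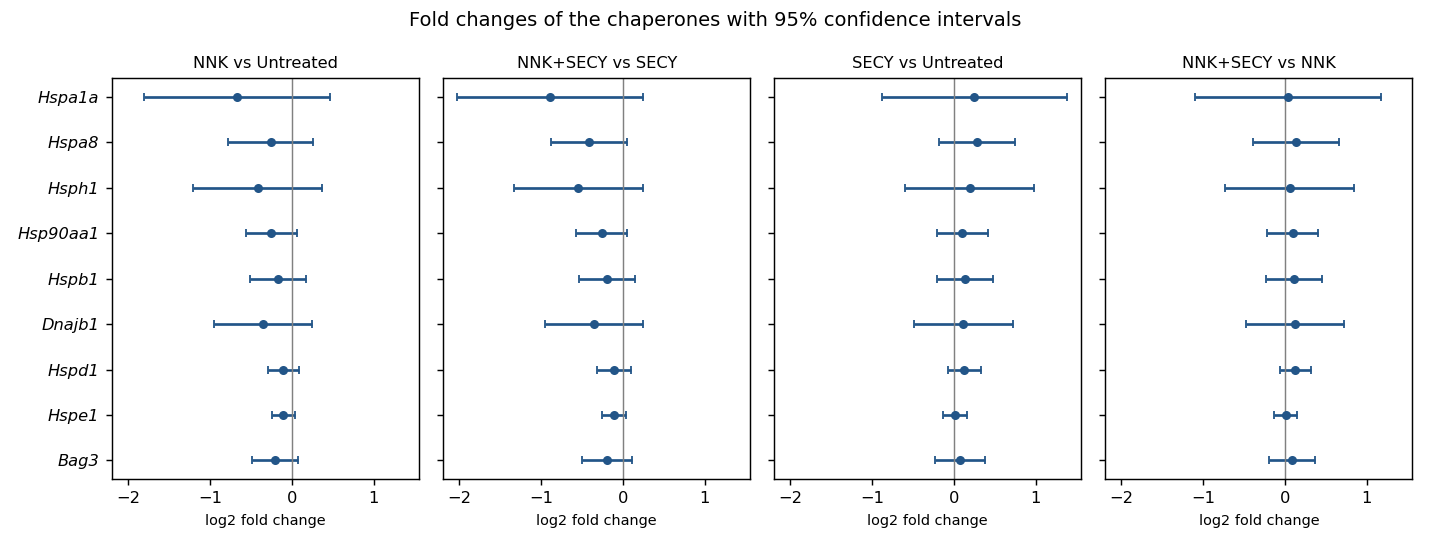
Log2 fold changes (horizontal axis) of the 9 chaperones in 4 comparisons, with 95% confidence intervals from the limma model over 16 arrays. Every interval holds 0, all 9 points lie below 0 for NNK vs Untreated and for NNK+SECY vs SECY, and the intervals of Hspa1a and Hsph1 are the widest.

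The diet comparison asked what differed after selenocystine without NNK. No chaperone passed, where 0.278% of all genes did, and all 9 were above 0 with a median of 0.13. The groups overlapped for all 9 genes, where SECY mice lay apart and higher for 1.92% of all genes and apart and lower for 2.26%. Hspa8 was at 0.28 (95% confidence interval -0.18 to 0.74), Hspa1a at 0.25 (interval -0.88 to 1.39), Hsph1 at 0.19 (interval -0.60 to 0.98) and Hspd1 at 0.13 (interval -0.075 to 0.33). The direction of the median rested on Untreated mouse 1. Without that mouse the median turned to -0.025 and Hspa1a to -0.31 ± 0.46 (SE), and without Untreated mouse 3 the median was 0.23. Hspa8 and Hspd1 stayed above 0 whichever array was left out. Without SECY 3 the median was 0.092 and Hspa1a was at -0.0077 ± 0.56 (SE).

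In NNK+SECY relative to NNK mice no chaperone passed, where 1.75% of all genes did, and the median of 0.094 turned to -0.029 without NNK+SECY mouse 4, the only mouse of that group with Hspa1a above the pool. The groups overlapped for all 9, where NNK+SECY mice lay apart and higher for 3.36% of all genes and apart and lower for 5.43%. Hspa1a was at 0.034 (95% confidence interval -1.10 to 1.17) and Hspd1 at 0.13 (interval -0.063 to 0.31). Against Untreated mice, which shared neither slide nor scan day with them, NNK+SECY mice had 8 of 9 genes below 0 with a median of -0.13, and none passed, where 1.6% of all genes did. Hspa1a was at -0.64 (interval -1.77 to 0.50). The groups overlapped for all 9, where 3.27% of all genes lay apart and higher and 3.61% apart and lower. This comparison shares the Untreated arrays with those above. The diet effect averaged over NNK and no NNK, also added after the data were seen, had a median of 0.12 and no chaperone passed, where 2.38% of all genes did.

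The spread between mice set these limits. The SD of a gene between mice of the same group, pooled over the 4 groups on the log2 scale, was 0.88 for Hspa1a, 0.61 for Hsph1, 0.46 for Dnajb1 and 0.33 for Hspa8. Over all genes tested the median SD was 0.095, which places Hspa1a at the 99.9th percentile, Hsph1 at the 99.7th, Dnajb1 at the 99.4th and Hspa8 at the 98.3rd. Hspb1 (0.26), Hsp90aa1 (0.24) and Bag3 (0.21) lay between the 93.8th and 96.6th percentiles. Hspd1 (0.13) was at the 77.9th and Hspe1 (0.095) at the 50.4th. The order ran from the inducible HSP70 and its helpers down to the mitochondrial pair.

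**Figure D3:**
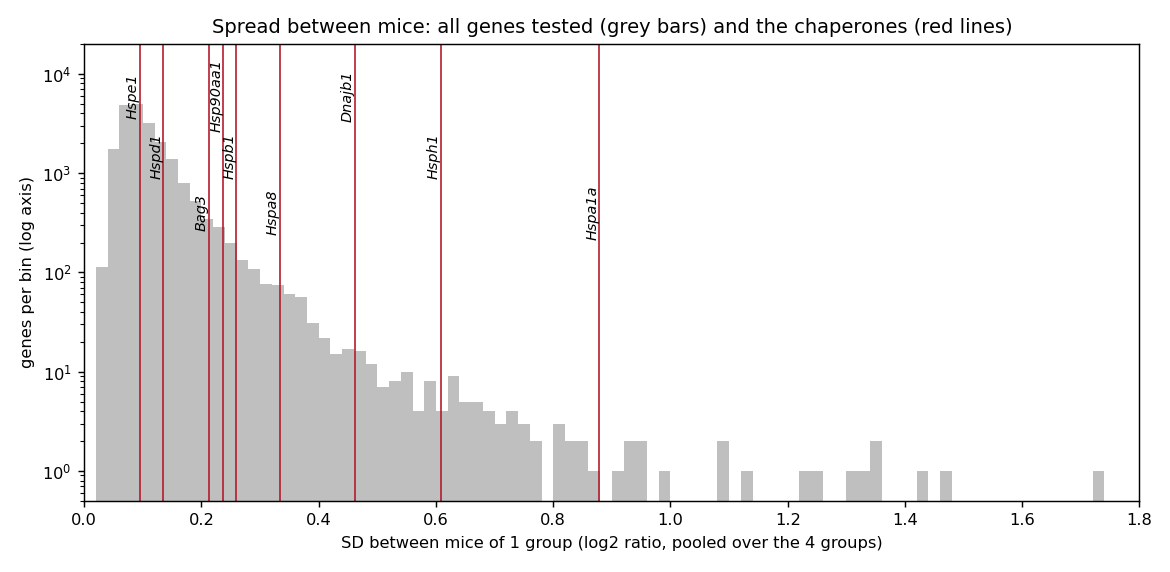
Number of genes (log axis) by their SD between mice of the same group, in log2 ratio pooled over the 4 groups, with red lines at the 9 chaperones. Hspe1 at 0.095 sits at the median of all genes and Hspa1a at 0.88 far in the right tail.

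The mice that were low for one of these genes were low for others. After each group's mean was taken off, the deviations of 16 mice were compared for 36 pairs of genes (permutation of mice within groups, 100000 draws, adjusted by Benjamini-Hochberg over the pairs), and 21 pairs passed an adjusted p of 0.05. The share of all pairs of genes that would pass was not computed. Outside the set, r with the mean deviation of the chaperones had a median of -0.014 and a 95th percentile of 0.598 over all genes. That mean is unweighted, so genes with a wide spread, such as Hspa1a, weigh most in it. The r of a chaperone with the mean of the others ran from 0.419 for Hsp90aa1 and 0.528 for Hspe1 to 0.977 for Dnajb1. Hsph1 and Dnajb1 had a Pearson r of 0.965 (permutation p = 2e-05, adjusted 0.00054) and a Spearman rho of 0.956 (permutation p = 4e-05, adjusted 0.00072), and r was 0.945 without the 2 mice farthest from the median. Hspa1a and Hsph1 had an r of 0.958 (permutation p = 3e-05, adjusted 0.00054) and a rho of 0.935 (permutation p = 3e-05, adjusted 0.00072), and r was 0.936 without the 2 farthest mice. The relation held on both slide sets, with an r of 0.971 for Hspa1a and Hsph1 on slides 1 to 4 and 0.945 on slides 5 to 8, and on both scan days, with 0.985 and 0.965.

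Grouped after these values were seen, 6 genes made 1 block: Hspa1a, Hspa8, Hsph1, Hspb1, Dnajb1 and Bag3, whose 15 pairs had r from 0.748 to 0.965. Hsp90aa1, Hspd1 and Hspe1 made another, with r of 0.721 to 0.89 over 3 pairs. Between both blocks the 18 pairs had r from -0.036 (Hsp90aa1 and Bag3) to 0.664 (Dnajb1 and Hspd1), with a median of 0.432. Hsp90aa1 and Hspd1, at an r of 0.89 over 15 mice (permutation p = 0.00023, adjusted 0.00118) and a rho of 0.814 (permutation p = 0.0027, adjusted 0.0081), kept 0.861 without the 2 farthest mice. The pairs of Hspe1 with Hsp90aa1 and with Hspd1 both dropped to 0.552 without the 2 farthest mice and to 0.323 and 0.511 on slides 1 to 4, below Hspe1 with Dnajb1 (0.632 and 0.652), so the place of Hspe1 in this block rests on a few mice.

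Mouse 1 was below its group mean in all 4 groups, with mean deviations over the 9 genes of -0.24 in NNK+SECY, -0.26 in NNK and -0.30 in SECY, against -0.55 in Untreated. Permuting mice within groups takes no account of a deviation that mice of the same number share. Without mice 1, a check added after the data were seen, r was 0.932 for Hspa1a with Hsph1 and 0.939 for Hsph1 with Dnajb1 over 12 mice, and 0.977 for Hsp90aa1 with Hspd1 over 11. The pairs of Bag3 within the block of 6 were lower, from 0.355 with Dnajb1 to 0.651 with Hspb1.

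**Figure D4:**
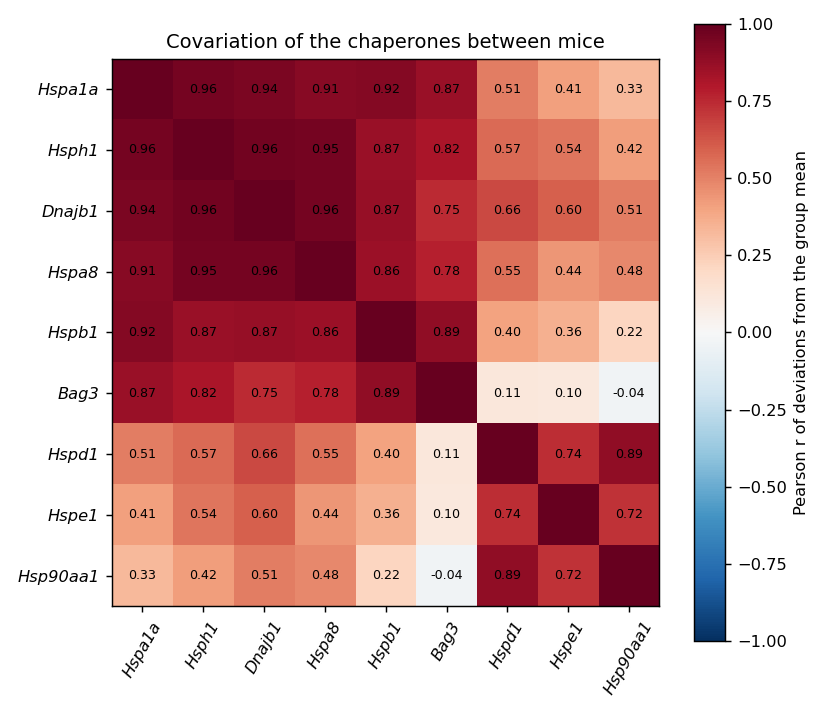
Pearson r of the deviations from the group mean for each pair of the 9 chaperones over 13 to 16 arrays (colour scale from -1 to 1). The block of Hspa1a, Hsph1, Dnajb1, Hspa8, Hspb1 and Bag3 has r of 0.748 or more, and Hsp90aa1 with Bag3 is the palest cell, at -0.036.

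Each mouse was averaged over its chaperones with a value, all 9 except in NNK 3 and NNK 4 (8 each) and SECY 2 (6). The lowest mice were Untreated 1 (-0.60), NNK 1 (-0.59), NNK+SECY 3 (-0.49), NNK+SECY 1 (-0.49) and NNK 4 (-0.46). The highest were SECY 4 (0.40), Untreated 3 (0.25), NNK+SECY 4 (0.23), SECY 3 (0.22) and Untreated 2 (0.20). Both mice of slide 1 were thus low and both mice of slide 8 high, while slide 7 held a low NNK+SECY mouse and a high SECY mouse.

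Outside the set, the 8 genes whose deviations were most like the mean deviation of the chaperones, out of 20652 genes with a value on all arrays, included 1 further J-domain protein, Dnaja4 (r = 0.955 over 16 mice, rho = 0.918, and 0.918 for r without the 2 farthest mice). The others were Rprd1a, a regulator of RNA polymerase II (r = 0.948), the steroid sulfate transporter Slc10a6 (0.946), Pxdc1 (0.945), the T cell signalling protein Themis (0.944), the actin regulator Phactr4 (0.941), Dedd2 (0.933) and a probe without a gene name (0.949). These were picked from all genes for this likeness, so their r is a description. Among the most opposite were Polg2, a subunit of the mitochondrial DNA polymerase (r = -0.965), an unnamed transcript (-0.921) and the cold-inducible RNA-binding protein Cirbp (-0.919). Over all genes 0.107% had an r above 0.9 and 0.0533% an r below -0.9.

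Cirbp, which cells make more of at lower temperature, was at 0.60, 0.047, 0.53 and -0.17 in NNK+SECY mice, and at 0.46, -0.33, -0.35 and 0.15 in NNK mice. It was at 0.22, -0.061, -0.41 and -0.34 in SECY mice, against 0.41, -0.29, -0.34 and -0.34 in Untreated mice. The highest 4, NNK+SECY 1 and 3, NNK 1 and Untreated 1, were the lowest 4 for Hspa1a. In contrast, NNK 2 and 3, SECY 2 and Untreated 4 were below the pool for both genes. Rbm3, another cold-inducible RNA-binding protein, had an r of 0.14 with the chaperone mean where it was measured. Of the 16 temperature and handling linked genes listed, none passed in any comparison, and 4 of the 13 with complete values had an r above 0, with a median of -0.403. Their r ran from -0.919 for Cirbp to 0.857 for Per1. The part of temperature and of handling in these values was not tested.

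**Figure D5:**
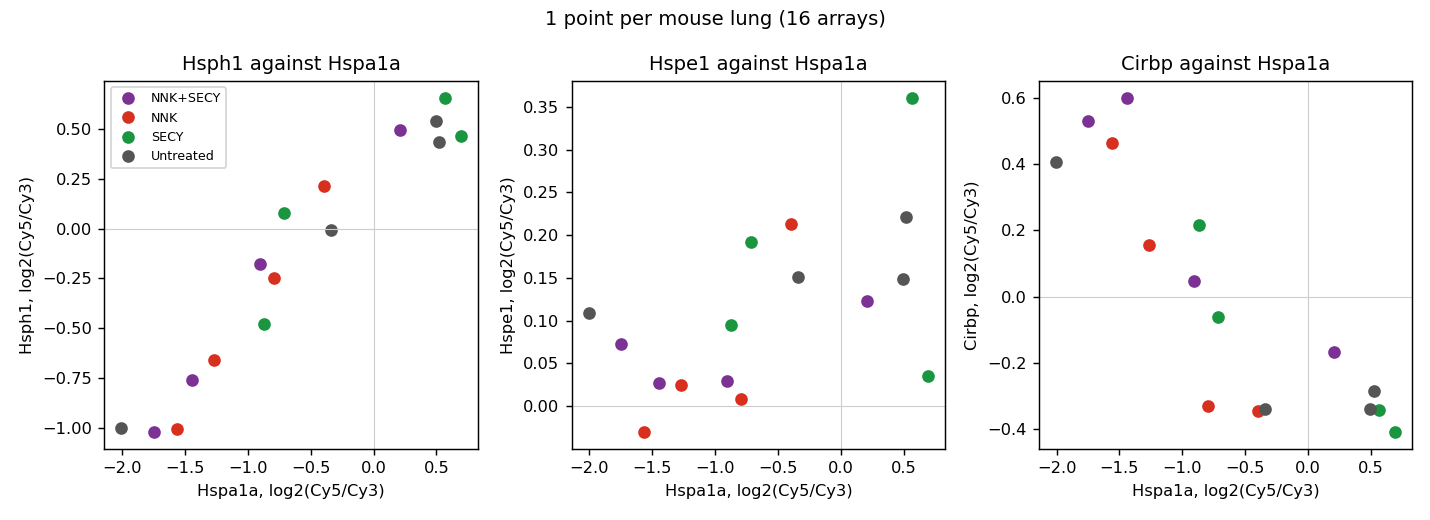
Hsph1, Hspe1 and Cirbp (vertical axes) against Hspa1a (horizontal axis), as log2 ratios to the untreated pool with 1 point per mouse lung, coloured by group. Hsph1 climbs with Hspa1a over all 4 groups, and Hspe1 spans only -0.030 to 0.36. Cirbp is highest among mice low for Hspa1a, although NNK 2, NNK 3, SECY 2 and Untreated 4 are below the pool for both.

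Markers of other cell types also moved with the chaperones from mouse to mouse. The defining lung markers were present: Sftpc of alveolar type 2 cells, Aqp5 of type 1 cells, Scgb1a1 of club cells and Kdr of endothelium were each well above background on all 16 arrays. Deviations of all 5 neutrophil and all 5 B cell markers with complete values ran against the chaperone mean, with a median r of -0.567 and -0.521, as did 7 of 8 T and NK cell markers with a median of -0.623, where 5% of all genes lay below -0.639. The summed log2 Cy5 signal of the 6 neutrophil markers spanned 10.5 to 11.8 in NNK+SECY, 10.8 to 11.9 in NNK and 9.17 to 11.7 in SECY mice, against 10.7 to 11.8 in Untreated mice. That of the 5 B cell markers spanned 9.66 to 10.2, 9.56 to 10.8 and 9.51 to 10.0 in these groups, against 9.48 to 10.7 in Untreated mice, and Cd79a was not well above background on every array. The summed signal of the 8 T and NK cell markers spanned 10.6 to 10.6, 10.7 to 10.8 and 10.3 to 10.7, against 10.4 to 10.7 in Untreated mice. For NNK vs Untreated all 9 chaperones and 47.1% of all genes were below 0. Above 0 were 7 of 8 T and NK cell, 5 of 5 B cell, 5 of 6 neutrophil and 6 of 6 ciliated cell markers. So were 3 of 3 erythroid, 6 of 7 cardiac muscle and 4 of 5 club cell markers. Below 0 were 6 of 8 alveolar type 2 and 5 of 6 adipose markers, and the other lists were split more evenly. The ciliated cell markers had a median r of only -0.144 with the chaperone mean. For NNK vs Untreated 1 of all these markers passed, the T cell receptor component Cd3e, named after its values were seen. The club cell marker Aldh1a7, also named after its values were seen, passed for NNK+SECY vs Untreated, where 1.6% of all genes did. It was at 0.57 ± 0.11 there (SE, log2 scale, adjusted p = 0.0159 in limma). Cd3e rose by 0.44 ± 0.08 in NNK relative to Untreated mice and fell by 0.36 ± 0.08 in NNK+SECY relative to NNK mice (SE, log2 scale, adjusted p = 0.0195 and 0.0203 in limma), and its r with the chaperone mean was 0.303. Markers of alveolar type 1 cells (5 of 6 with an r above 0, median 0.446), alveolar type 2 cells (6 of 7, median 0.405) and endothelium (6 of 7, median 0.393) ran with the chaperones. The part of lung, blood or immune cells in the chaperone values was not tested.

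Other chaperones and heat shock factor targets were read from 10 lists with 129 places (a gene may stand in several lists), in which 1 call was made over all 6 comparisons. It came in NNK+SECY vs NNK, where 1.75% of all genes were called and 5.43% lay apart and lower. For NNK vs Untreated 78 of the 129 were below 0 and 51 above, where 47.1% of all genes were below. For NNK+SECY vs SECY 77 were below and 52 above, where 47.2% of all genes were below. For SECY vs Untreated 47 were below and 82 above, where 51.9% of all genes were below. Pfdn6, a subunit of the prefoldin that hands nascent chains to the TRiC chaperonin, was at -0.15, -0.11, -0.094 and -0.14 in NNK+SECY mice, against 0.0064, 0.032, 0.056 and 0.063 in NNK mice. All 4 NNK+SECY mice lay below all 4 NNK mice, and Pfdn6 fell by 0.16 ± 0.04 on the log2 scale (SE, adjusted p = 0.0464 in limma).

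Among 18 other heat shock factor target genes none passed in any comparison. For NNK vs Untreated 14 of them were below 0 (median -0.075), where 47.1% of all genes were. For NNK+SECY vs SECY 17 were (median -0.12), where 47.2% of all genes were. Deviations of 17 of the 18 ran with the chaperone mean (median r of 0.732), so these signs are not separate observations. Dnaja1, a J-domain partner of HSP70, was at -0.78, -0.36, -0.083 and -0.71 in NNK mice, against -0.46, 0.34, 0.30 and -0.0041 in Untreated mice. All 4 NNK mice lay below the pool and the groups overlapped through Untreated mouse 1, with a log2 fold change of -0.53 ± 0.23 (SE, adjusted p = 0.915 in limma). The HSP90 partner Cacybp was at -0.32 ± 0.14 for the same comparison and the HSP70-interacting protein St13 at -0.18 ± 0.08 (SE, adjusted p = 0.932 for both in limma).

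None of the 4 tested genes of the list of heat shock factors and their partners passed. Hsf2bp, a partner of Hsf2, was at 1.15, 1.30, 1.21 and 1.18 in NNK mice, against 0.73, 0.82, 1.01 and 1.08 in Untreated mice. All 4 Untreated mice thus lay above the mix of their own RNA, so the ratios of Hsf2bp are not levels relative to that mix. The cause of this offset was not tested. All 4 NNK mice lay above all 4 Untreated mice, as they did for 2.81% of all genes, at a log2 fold change of 0.30 ± 0.09 (SE, adjusted p = 0.306 in limma). Hsf1, the master regulator, was at -0.069 ± 0.057 for NNK vs Untreated and at -0.13 ± 0.06 for NNK+SECY vs SECY (SE, adjusted p = 0.791 in limma for the second). Its transcript had an SD between mice at the 25.8th percentile of all genes and an r of 0.566 with the chaperone mean. Within the HSP70 family Hspa4 was at -0.21 ± 0.13 and the mitochondrial HSP70, Hspa9, at 0.18 ± 0.07 for NNK+SECY vs NNK (SE, adjusted p = 0.646 and 0.301 in limma). The small heat shock protein Hspb8 was at 0.33 ± 0.13 for SECY vs Untreated (SE, adjusted p = 0.488 in limma), and Cryab, the lens and muscle crystallin, was at -0.16 ± 0.06 for NNK+SECY vs SECY (SE, adjusted p = 0.791 in limma).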

How the data were processed

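Feature Extraction 8.1.1.1 made the scanner files, per the file headers. Spot and background intensity are deposited for each colour on a linear scale. The processed signals and the log10 ratios of red over green had, per the file headers, spatial detrending and dye normalization (linear, then lowess) without global background adjustment. The authors' deposited value table holds these ratios as log2, within 0.005.

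Here mean signals were corrected with normexp (offset 50) and normalized by loess within each array in limma (version 3.58.1, R version 4.3.3). Control and flagged spots had weight 0, and flagged spots were left out. Where a gene had several probes, the brightest over all arrays stood for it. It was tested if that probe was well above the Cy5 background in every mouse of some group. One limma model with 4 group means was fitted over the 16 arrays, and p-values were adjusted by Benjamini-Hochberg over all genes tested. On simulated log2 ratios for NNK vs Untreated over 20658 genes, the fit recovered 99% of 100 genes changed by 1 and 95% of 100 changed by 0.5. The changed genes were drawn from all genes, whose median SD between mice was 0.095. These shares therefore do not hold for chaperones with a wide spread, such as Hspa1a (0.88), Hsph1 (0.61), Dnajb1 (0.46) and Hspa8 (0.33).

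The members and lists were chosen with earlier results of these data known. Other genes named are, of each list, those called or the 2 with the smallest p (of these, those shown), the brightest marker of a cell type, and the 8 genes most like and 4 most unlike the chaperone mean, of which 1 is not reported here. According to the labels the mice are biological replicates, and their number limits the precision. Alternatives were other background, normalization, source, filter, probe and variance settings, Cy5 alone, slide and replicate blocks, and leaving out each array.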

Additional observations from a re-analysis of the deposited data

How the results depend on the processing

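No chaperone was called under any of the alternatives, in any of the 6 comparisons or the 2 contrasts averaged over diet or over NNK. The median over the 9 genes turned sign for SECY vs Untreated without Untreated mouse 1, for NNK+SECY vs NNK without NNK+SECY mouse 4 and, under several alternatives, for the interaction, and no such turn came in the other comparisons. Of 1773 values of single genes, 125 changed sign, 68 of them in the interaction and none in NNK+SECY vs SECY or in NNK averaged over both diets. When each array was left out in turn, the median ranged from -0.33 to -0.17 for NNK vs Untreated, from -0.025 to 0.23 for SECY vs Untreated, from -0.28 to -0.083 for NNK+SECY vs Untreated, from -0.029 to 0.18 for NNK+SECY vs NNK, from -0.38 to -0.20 for NNK+SECY vs SECY and from -0.13 to 0.13 for the interaction. It ranged from -0.32 to -0.22 for NNK averaged over both diets and from 0.020 to 0.17 for SECY averaged over NNK and no NNK. With the replicate number as a block the medians were -0.21, 0.13, -0.13, 0.086, -0.26 and -0.022 in the same order and 0 chaperones were called, and the block changed no call. Over all genes mice 1 correlated best with their own number in each comparison (r of 0.212 to 0.503). Other numbers did so in some comparisons, as mice 2 and 3 of NNK and Untreated did (0.181 and 0.364). In others they did not (-0.013 for mice 4 of NNK and Untreated). The labels do not state that the numbers pair the mice, so the main model held no block for them. Median centring in place of loess gave -0.34 for NNK vs Untreated, and the Cy5 signal alone gave -0.30 for NNK+SECY vs Untreated. The smallest adjusted p of a chaperone over all alternatives was 0.0894, for NNK+SECY vs Untreated with the Cy5 signal alone (limma). A block for the scan day was not run, because it follows NNK on every slide.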
